A study of Mus musculus with 2 samples.

Results

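Elf3 and 5 other genes of epithelial identity, Ehf, Elf5, Grhl2, Klf5 and Cdh1, were examined for binding of the transcription factors ELF3 and NFKB2. The members were the regions of the deposited peak lists that overlapped each gene with about 20 kb of flanking sequence on each side, called the window here. They comprised 49 of 68319 ELF3 regions and 14 of 14217 NFKB2 regions, over 543 kb of windows. The assay was CUT&RUN: an antibody brings micrococcal nuclease to a bound protein, and the DNA cut out around it is sequenced. The study gave 2 libraries, 1 for ELF3 and 1 for NFKB2. Both were made from primary kidney cultures, labelled as renal tubular epithelial cells, with the genotype wild type, the treatment TNFα + IFNγ and batch 1. Both groups therefore carry the cytokine treatment, and untreated cells and the IgG negative control are not analysed here as libraries of their own. The cells are a primary culture rather than tissue, and the labels do not name the tubule segment.

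Each antibody has 1 library, so differences between them have no replicate check, and no p-value was computed. All intervals are 95% intervals for counting error only. The quantity given for each region is the number of fragments at its summit, the position of highest signal, as recovered from the deposited fold and −log10 p. Depth came to 10.1 fragments per kb of the caller's genome size for ELF3 and 10.6 for NFKB2, a ratio of 1.04. The lowest local background of each library is called the floor, and at the floor the weakest listed region had 6 ELF3 or 8 NFKB2 fragments. A place with no listed region may therefore still hold weak signal. Coordinates are those of the files, whose sequence names belong to GRCm39, while the submitters' processing notes name mm10. The 5′ end of each gene is taken from the windows, which are given to the kb. It is uncertain by about 1 kb, and by about 4 kb at Elf5, and no exon or intron was assigned. No marker gene of the labelled cell type was checked in these lists.

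ELF3, EHF and ELF5 are epithelial members of the ETS family, whose proteins bind DNA around the core GGAA. ELF3 is induced by inflammatory cytokines in many epithelia, and NF-κB is a known activator of its gene. GRHL2, a grainyhead factor, and KLF5, a zinc finger factor, also act in the gene programmes of epithelial cells. Cdh1 encodes E-cadherin, the adhesion molecule of epithelial cell contacts and a known target of GRHL2. NFKB2 is made as the precursor p100, which non-canonical NF-κB signalling processes to the DNA-binding subunit p52.

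The sequence just before the gene start was taken from RefSeq (GRCm38.p6), which matched 2 of the 6 genes, Elf3 with 1 start and Elf5 with 2. These 2 genes are shown because no such sequence was available for the others. Elf3 had the strongest NFKB2 region of all the windows and Elf5 had none, but whether the sequences bear on this was not tested. Each line gives the 250 bases before the start, 5′ to 3′ in the direction of transcription. Capitals mark matches of GGAA and of the NF-κB consensus on either strand (TTCC is GGAA on the opposite strand).
Elf3: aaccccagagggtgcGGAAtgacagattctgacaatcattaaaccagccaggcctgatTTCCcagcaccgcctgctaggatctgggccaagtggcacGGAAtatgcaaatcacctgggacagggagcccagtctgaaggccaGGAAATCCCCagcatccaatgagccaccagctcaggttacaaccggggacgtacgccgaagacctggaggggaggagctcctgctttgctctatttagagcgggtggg
Elf5, first start: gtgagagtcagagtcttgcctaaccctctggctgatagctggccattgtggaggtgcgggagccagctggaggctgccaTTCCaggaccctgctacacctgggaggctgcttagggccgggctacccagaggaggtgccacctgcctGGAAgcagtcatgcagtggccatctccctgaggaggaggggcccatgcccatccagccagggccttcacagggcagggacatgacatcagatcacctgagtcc
Elf5, second start: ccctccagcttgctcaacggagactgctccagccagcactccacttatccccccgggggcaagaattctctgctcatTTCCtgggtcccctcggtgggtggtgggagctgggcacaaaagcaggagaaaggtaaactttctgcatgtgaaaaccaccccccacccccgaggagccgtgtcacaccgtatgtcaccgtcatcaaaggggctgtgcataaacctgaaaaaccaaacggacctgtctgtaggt
Elf3 has 1 match of the NF-κB consensus, from base -108 to base -99 relative to the start. It reads GGGGATTTCC on the opposite strand and its first 4 bases as printed in the line are also a GGAA match. Neither Elf5 start has such a match, and 7.25% of 32851 mouse promoter sequences of this length have one. GGAA occurs 4 times before Elf3, and 2 and 1 times before the Elf5 starts, but 93.4% of the sequences hold it at least once. The longer ETS sequence CCGGAAGT, found in 2.88% of them, is in none of the 3. The search covered both strands. The peak lists use another build, so no summit was placed on these letters.

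ELF3 regions were found in all 6 windows and NFKB2 regions in 5. At the 5′ end, within 1 kb, ELF3 occupied 5 genes, namely Elf3, Ehf, Grhl2, Klf5 and Cdh1, and NFKB2 occupied 4 of these, Grhl2 being the exception. The share of all genes with a region at the 5′ end needs an annotation and was not computed. These counts therefore do not set the 6 genes apart from others. No region was listed within 1 kb of the start the window gives for Elf5, but that start is uncertain and a weak ELF3 region stands 1.97 kb from it. The windows held 9.02 ELF3 regions per 100 kb (6.68 to 11.9) and 2.58 NFKB2 regions per 100 kb (1.41 to 4.33). Over the autosomes and X the values were 2.66 and 0.553, so the windows were 3.39 and 4.66 times as dense. That average includes long stretches without genes, and its difference from the windows was not tested against other genes. ELF3 regions covered 7.08% of the windows and 1.83% of the autosomes and X, and NFKB2 regions covered 1.04% and 0.282%.

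**Figure D1:**
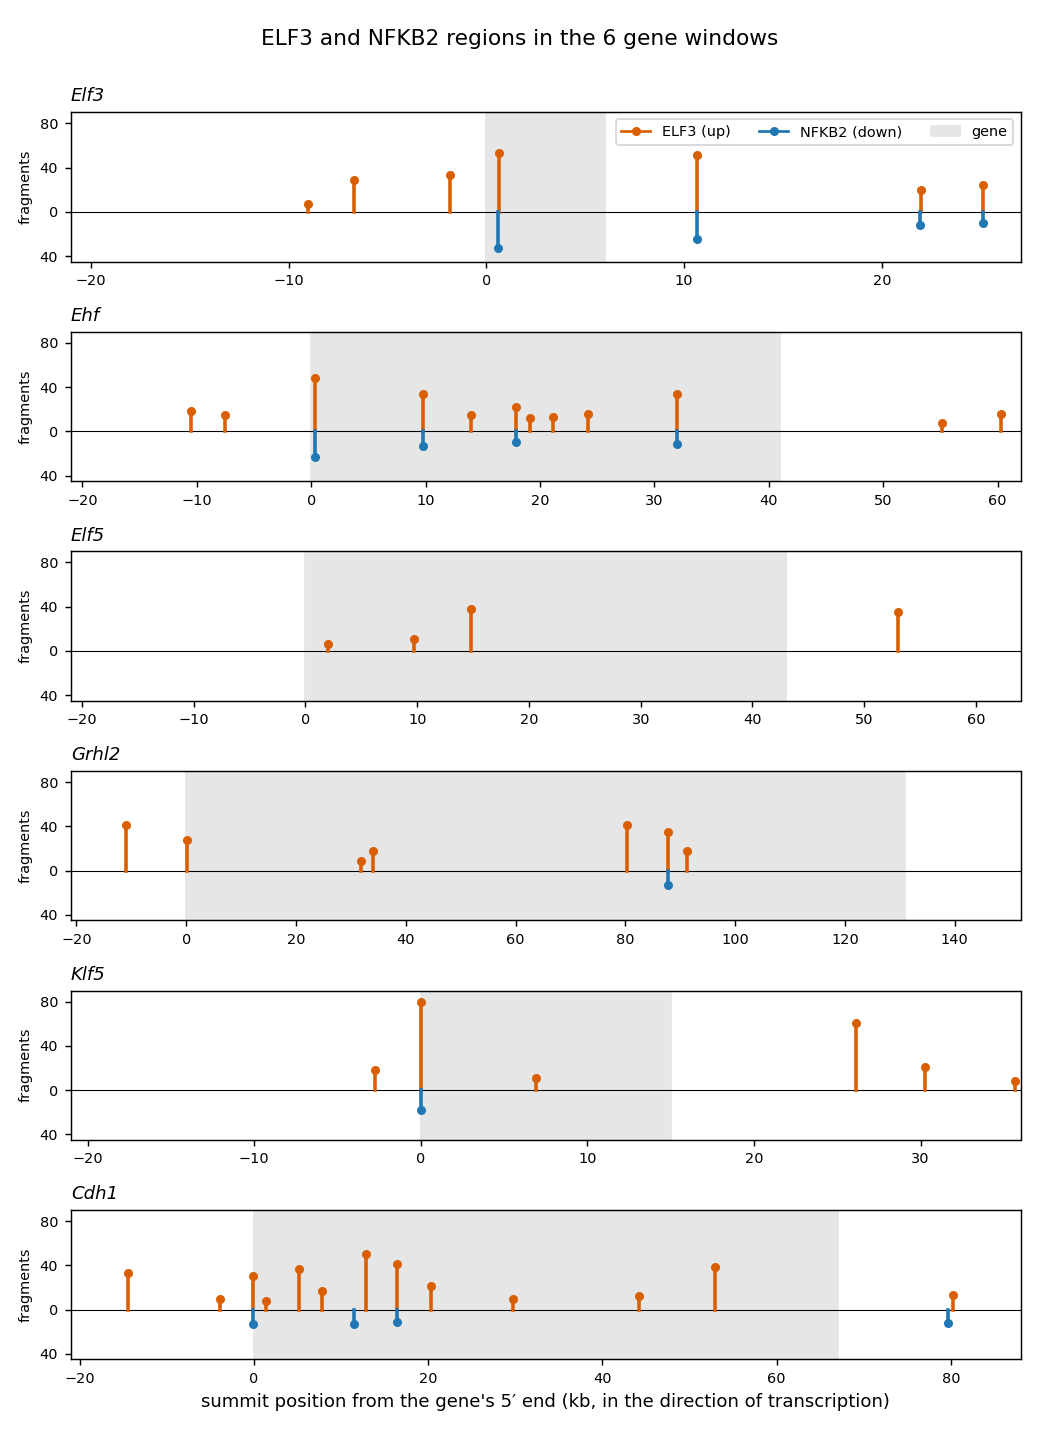
Fragments at the summit of each ELF3 region (orange, upward) and NFKB2 region (blue, downward) against the distance of the summit from the 5′ end of the gene in kb, in the direction of transcription, 1 panel per gene window; grey marks the gene. ELF3 and NFKB2 stand together near 0 at Elf3, Ehf, Klf5 and Cdh1, ELF3 stands alone there at Grhl2, and the Elf5 panel has no NFKB2 region.

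In strength, the ELF3 regions of the windows were like those of the whole list. Their median was 21 fragments (quartiles 13 and 35, highest 80), against 22 (14 and 36) over all ELF3 regions. Of the 49 regions, 5 had 50 or more fragments (10.2%, 3.4 to 22.2), and 13.5% of all ELF3 regions did. The median width was 542 bp in the windows and 418 bp in the list, and 13 regions were 1000 bp or wider (26.5%, 14.9 to 41.1), against 20.9% of the list. The median of the 14 NFKB2 regions was 13 fragments (quartiles 11.3 and 16.8). Over the NFKB2 list it was 16 (13 and 22), and 10 of them lay below that list's median.

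Every NFKB2 region of the windows lay on an ELF3 region, 14 of 14 (76.8 to 100%), as did 96.8% of the whole NFKB2 list. In the other direction 14 of 49 ELF3 regions were shared with NFKB2 (28.6%, 16.6 to 43.3). In the ELF3 list 19.7% were, which lies inside that interval. Among ELF3 regions of 30 or more fragments, 10 of 19 were shared (52.6%, 28.9 to 75.6), against 41.9% of such regions in the list. With 50 or more fragments 4 of 5 were shared (80%, 28.4 to 99.5), against 59.1%. Among weaker ones 4 of 30 were shared (13.3%, 3.76 to 30.7), against 8.22%. Shared ELF3 regions of the windows had a median of 34.5 fragments and the others 17, and over the whole list the medians were 43 and 19. By position, 4 of 5 ELF3 regions at a 5′ end were shared, 6 of 25 inside the genes, 4 of 10 downstream and 0 of 9 upstream (0 to 33.6%). Strength differed by position too, with median ELF3 fragments of 48 at the 5′ ends, 18 inside the genes, 20.5 downstream and 18 upstream, and its part in these counts was not tested. Shares by position over the whole list need an annotation and were not computed.

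**Figure D2:**
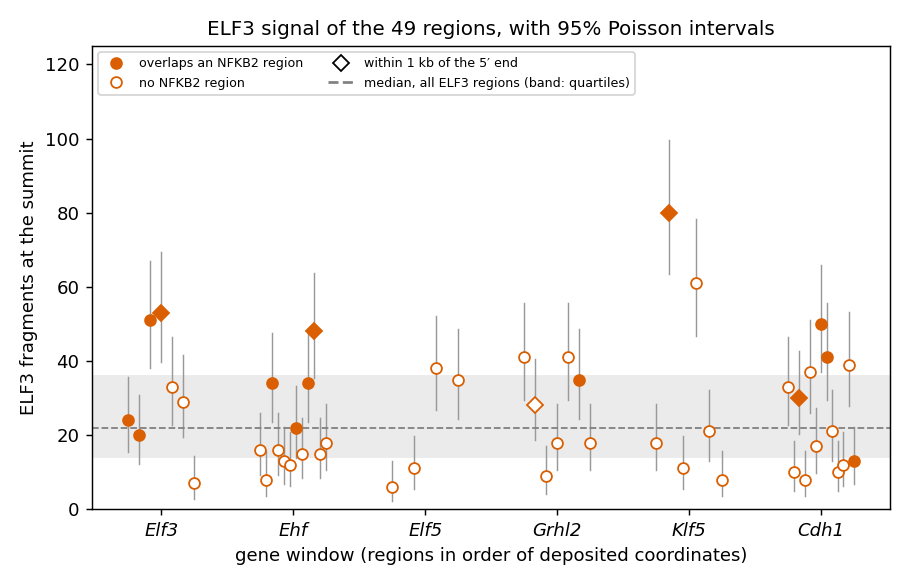
ELF3 fragments at the summit of the 49 regions by gene window, with 95% Poisson intervals; filled symbols overlap an NFKB2 region, diamonds lie within 1 kb of the 5′ end, and the dashed line and band give the median and quartiles of all ELF3 regions. The strongest region is the 5′ end of Klf5 with 80 fragments, and the open symbol at 61 fragments in the same window is the strongest without NFKB2.

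Elf3 is the gene of the profiled factor itself, and its window held 7 ELF3 and 4 NFKB2 regions in 46 kb. That is 15.2 ELF3 regions per 100 kb (6.12 to 31.4), like the 14.8 (7.66 to 25.9) at Ehf. For NFKB2 it is 8.70 (2.37 to 22.3), beside 4.94 (1.35 to 12.6) at Ehf, with intervals that overlap. Of the Elf3 window 17.9% lay within ELF3 regions. The widest region of all the windows, at chr1:135183273-135187105, spanned 3833 bp and reached the 5′ end of the gene. It was wider than 99.3% of the ELF3 list. Its summit held 53 ELF3 fragments (39.7 to 69.3), more than 88.2% of ELF3 regions. The NFKB2 region on it, chr1:135186188-135187026, held 33 fragments (22.7 to 46.3), more than 92.3% of NFKB2 regions. This was the highest NFKB2 count of the 6 windows. The summits lay 45 bp from each other and within 1 kb of the 5′ end the window gives, too near to it to be placed inside or before the gene. The NFKB2 region took up 21.9% of the width of the ELF3 region, at its end nearest the gene start.

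A second site of almost equal ELF3 signal lay 10.6 kb from the start, beyond the end of Elf3. There chr1:135176243-135176666 had 51 ELF3 fragments (38.0 to 67.1), and chr1:135176156-135176514 had 25 NFKB2 fragments (16.2 to 36.9). The summits were 20 bp apart. The next pair were weaker and stood near the outer edge of the window, on the side where Gpr37l1 is the neighbouring protein-coding gene in RefSeq. At chr1:135164860-135165420 ELF3 had 20 fragments and NFKB2 had 12, at chr1:135164993-135165268. At chr1:135161748-135162193 ELF3 had 24, and NFKB2 had 10 at chr1:135161837-135162022. All 4 downstream and 5′ regions of ELF3 were therefore shared. On the other side, toward Rnpep, the 3 upstream ELF3 regions had no NFKB2 region. The strongest of them, chr1:135188228-135190288, began about 1 kb before the gene and held 33 fragments (22.7 to 46.3) over 2061 bp. Its local background was 1.62 times the floor, equal to 2 control fragments. The remaining upstream regions had 29 and 7 fragments.

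Ehf encodes a close relative of ELF3. Its window held 12 ELF3 regions in 81 kb, of which 10 formed a run of 42.6 kb with gaps under 10 kb, and 4 NFKB2 regions. The 5′ end was the strongest place for both factors. ELF3 had 48 fragments (35.4 to 63.6) at chr2:103132638-103134584, and NFKB2 had 23 (14.6 to 34.5) at chr2:103133580-103134454, more than 77.0% of NFKB2 regions. Inside the gene, at 9.76 kb, ELF3 had 34 fragments over 1257 bp at chr2:103124003-103125259. NFKB2 had 13 fragments over 1066 bp there, at chr2:103124038-103125103. This was the widest NFKB2 region of the windows, and wider than 90.4% of the NFKB2 list although its count was below the list's median. A further 34 ELF3 fragments stood at 32.0 kb, chr2:103101905-103102224, where NFKB2 had 11 at chr2:103101832-103102064 over a background of 2 control fragments. The last pair, at 17.9 kb, had 22 ELF3 fragments, at chr2:103115963-103116347, and 10 NFKB2 fragments, at chr2:103115995-103116179. The 8 ELF3 regions of Ehf without NFKB2 had 8 to 18 fragments, below every shared one.

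Elf5, the neighbour of Ehf on chromosome 2 and the third ETS gene, had the fewest regions. Its window of 83 kb held 4 ELF3 regions and no NFKB2 region. None of the 4 was shared (0 to 60.2%), and the 19.7% of the whole ELF3 list lies inside that interval. The interval for NFKB2 density, 0 to 4.44 per 100 kb, also holds the 0.553 of the autosomes and X. The lack of NFKB2 is therefore not set apart from the lists. The 2 strong ones were of about the same height. ELF3 had 38 fragments (26.9 to 52.2) inside the gene at 14.8 kb, chr2:103256585-103256891, and 35 (24.4 to 48.7) beyond its end, at chr2:103294919-103295187. The remaining 2 regions had 11 fragments, at chr2:103251632-103251836, and 6, at chr2:103243828-103243997. The last, about 2 kb from the start, was the weakest of all the members and at the lower limit of the ELF3 list. RefSeq gives Elf5 a length of 38.9 kb and the window one of 43 kb, so its 5′ end is less certain than the others. Widths were 170 to 307 bp, and all 4 regions were narrower than the list's median of 418 bp. Background was at the floor in all 4.

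Grhl2 had 7 ELF3 regions in 171 kb, 4.09 per 100 kb (1.65 to 8.43). This was the lowest density of the 6 windows, but its interval overlaps that of every other window. The highest counts of Grhl2 were away from the start. ELF3 had 41 fragments (29.4 to 55.6) upstream, at chr15:37221765-37222306, and again 41 inside the gene at 80.3 kb, chr15:37312722-37314104. The third, at 87.7 kb, chr15:37320465-37320905, had 35 and was the only one shared. NFKB2 had 13 fragments (6.92 to 22.2) on it, at chr15:37320657-37320845, 189 bp wide. At the 5′ end ELF3 covered 2692 bp, chr15:37232376-37235067, with 28 fragments (18.6 to 40.5) at the summit. That region was wider than 97.9% of the ELF3 list and no NFKB2 region was listed on it. The local background there, and at the intragenic 41-fragment region, was 2.43 times the floor, equal to 3 control fragments, a level reached among the members also by an ELF3 region of 15 fragments inside Ehf. A raised background also raises the count needed for listing in the NFKB2 library, and its part in the missing NFKB2 region was not tested.

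Klf5 carried the strongest ELF3 region of the set, at its 5′ end. ELF3 had 80 fragments (63.4 to 99.6) at chr14:99535539-99537548, more than 96.7% of ELF3 regions. NFKB2 had 18 (10.7 to 28.4) at chr14:99535904-99536149, near the median of its list, over 12.2% of the ELF3 width. It was the only NFKB2 region of the window. The second ELF3 region, chr14:99560941-99562597, lay beyond the gene at 26.1 kb and had 61 fragments (46.7 to 78.4) over 1657 bp. It was the strongest ELF3 region of the windows without NFKB2, with a background 1.47 times the floor. The third, chr14:99565740-99566605, had 21 fragments. The other 3 had 18, 11 and 8, and the summit of the last, chr14:99570657-99571704, fell just outside the window it overlaps.

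Cdh1, the adhesion gene of the set, had 13 ELF3 regions, the highest number of the windows, and 4 NFKB2 regions, as many as Elf3 and Ehf. In its 107 kb these are 12.1 (6.47 to 20.8) and 3.74 (1.02 to 9.57) per 100 kb. Both lie below the values at Elf3 and Ehf, with intervals that overlap. From upstream of the start into the gene, 10 ELF3 regions followed each other over 44.8 kb with gaps under 10 kb. The 5′ end itself was moderate and narrow. ELF3 had 30 fragments (20.2 to 42.8) over 281 bp, at chr8:107329785-107330065, and NFKB2 had 13 (6.92 to 22.2) over 168 bp, at chr8:107329823-107329990. At the other 4 genes with ELF3 at the 5′ end that region was 1947 to 3833 bp wide. The highest ELF3 counts were inside Cdh1. ELF3 had 50 fragments (37.1 to 65.9) at 12.8 kb, chr8:107341414-107344085, over a background of 2 control fragments. It had 41 (29.4 to 55.6) at 16.5 kb, chr8:107346088-107347353, and 39 (27.7 to 53.3) at 52.9 kb, chr8:107382679-107382982. NFKB2 lay on the first of these with 13 fragments, at chr8:107341433-107341615, and on the second with 11, at chr8:107346281-107346524, but not on the third. The fourth NFKB2 region, chr8:107409678-107410259, had 12 fragments and stood 79.7 kb from the start, beyond the end of the gene on the side of Tango6. It counts here only because the window reaches it. Its distance from the start of Tango6 was not measured, so it is not assigned to either gene. The ELF3 region under it, chr8:107409641-107410276, had 13.

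Summits of the paired regions nearly coincided. The median distance over the 14 pairs was 34.5 bp, against 41 bp over all 13769 shared NFKB2 regions, and 12 pairs lay within 100 bp (85.7%, 57.2 to 98.2), against 75.5%. Both exceptions were in the Cdh1 window. In the 2672 bp region at 12.8 kb the summits were 1330 bp apart, with NFKB2 at the edge nearest the gene start. At the downstream region they were 508 bp apart.

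**Figure D3:**
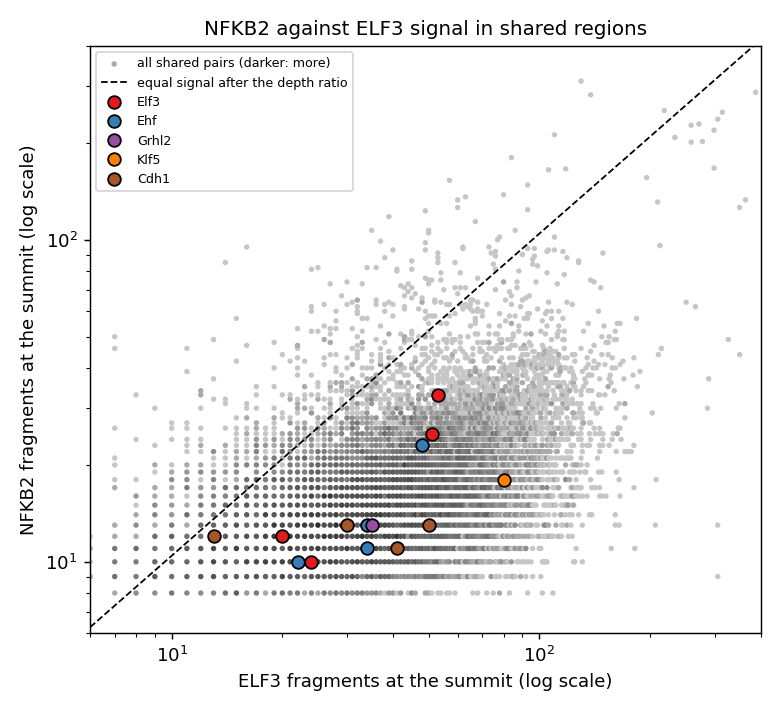
NFKB2 fragments against ELF3 fragments at the summits of shared regions, both axes logarithmic and ending at 400 fragments; coloured points are the 14 pairs of the windows, grey points all shared pairs, and the dashed line is equal signal after the depth ratio. All 14 points lie below the line, and Elf3 and Ehf hold the 3 with most NFKB2 fragments.

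In all 14 pairs NFKB2 had less signal than ELF3 after the depth ratio, as in 94% of shared regions of the lists. The depth ratio does not correct for differences between the antibodies, so the level of this ratio is not a measure of relative binding. The median ratio of NFKB2 to ELF3 was 0.407 (quartiles 0.321 and 0.467), against 0.388 (0.272 and 0.561) over all 13769. NFKB2 was more than 2-fold lower in 11 of 14 (78.6%, 49.2 to 95.3), against 68.4%. The interval of the ratio lay under 1 for 12 of 14 pairs (85.7%, 57.2 to 98.2), against 72.4% of all shared regions. The exceptions were the Elf3 pair at 21.9 kb, with a ratio of 0.575 (0.256 to 1.23), and the downstream Cdh1 pair, with 0.884 (0.369 to 2.10). The summits of that Cdh1 pair were 508 bp apart.

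Among the 5′ ends this ratio was highest at Elf3 and lowest at Klf5. It was 0.596 (0.374 to 0.938) at Elf3, 0.459 (0.266 to 0.769) at Ehf and 0.415 (0.199 to 0.820) at Cdh1. At Klf5 it was 0.215 (0.122 to 0.363), higher than in only 12.9% of shared regions. That region also had the highest ELF3 count of the windows, 80 fragments, by which the ratio is divided. The rank is among pairs of any ELF3 count, and whether NFKB2 is low among pairs of like ELF3 count was not tested. The intervals of Elf3 and Klf5 do not meet, whereas those of the other 5 pairings of these 4 genes do. These single-library intervals make no allowance for the number of pairs compared, and there is no replicate. Within Cdh1 the intragenic pairs had ratios of 0.249 and 0.257, and their intervals (0.124 to 0.465 and 0.119 to 0.509) met that of the 5′ end. The summits of the 0.249 pair were 1330 bp apart, so its ratio does not compare the factors at the same place.

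**Figure D4:**
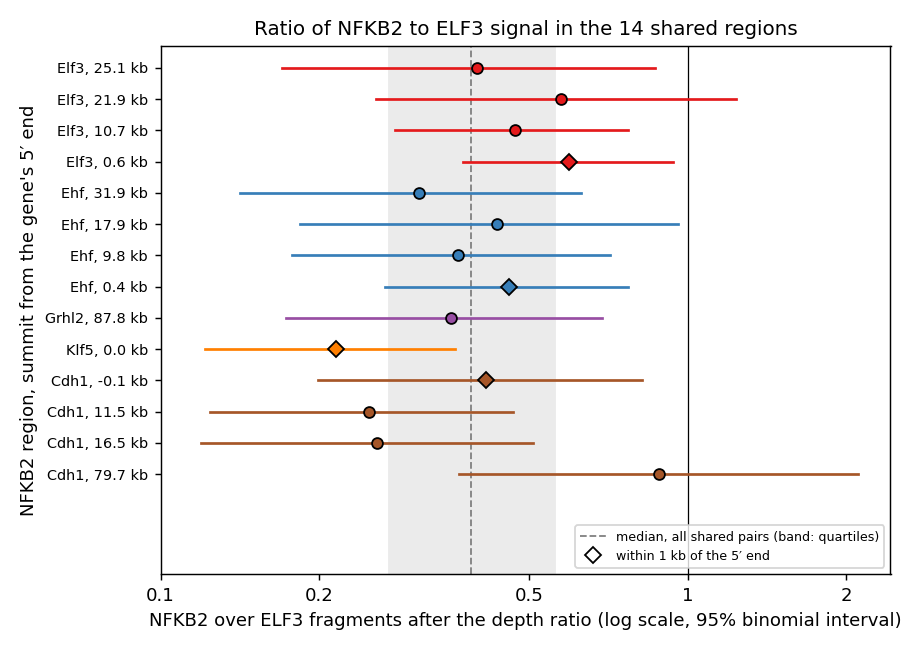
Ratio of NFKB2 to ELF3 fragments after the depth ratio, on a log axis with 95% binomial intervals, for the 14 pairs named by gene and distance of the NFKB2 summit from the 5′ end; diamonds are 5′ ends, and the dashed line and band give the median and quartiles of all shared pairs. The Elf3 5′ end stands at 0.596 and the Klf5 5′ end at 0.215, on either side of the band.

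Of the 35 ELF3 regions without NFKB2, 9 had 30 or more fragments (25.7%, 12.5 to 43.3), close to the 24.5% of such regions in the list. They occurred at Elf3 (33 fragments), Elf5 (38 and 35), Grhl2 (41 and 41), Klf5 (61) and Cdh1 (39, 37 and 33). ELF3 regions of the windows also stood close together. Another ELF3 summit lay within 10 kb of 44 of the 49 (89.8%, 77.8 to 96.6), against 62% of the ELF3 list. Neighbours count each other, so the regions are not independent and this interval is too narrow. The share is also tied to the higher density of ELF3 regions in the windows and is not a separate result. The median number of such neighbours was 2 in the windows and 1 in the list. Control signal was raised at few members. Background was at the floor at 39 of 49 ELF3 regions (79.6%, 65.7 to 89.8, against 70.8% of the list) and at 12 of 14 NFKB2 regions (85.7%, 57.2 to 98.2, against 70.3%).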

How the data were processed

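The 2 CUT&RUN libraries were grouped by the antibody in the labels. Per the submitters' processing notes, MACS2 made the lists; the sources used here do not give its version and settings or the aligner. Each deposited list gives positions, a score (10 times −log10 q), a fold (a ratio of signal over local background at the summit), −log10 p and −log10 q, by the authors' caller.

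Fragments and background were recovered from the deposited fold and −log10 p, with fold = (fragments + 1)/(background + 1) and a Poisson −log10 p, in the caller's scaled units. One ELF3 fragment counted as 1 unit and one NFKB2 fragment as 0.964. A solution within 0.01 (wider above a −log10 p of 100) was found for 100% of both lists, and 100% of simulated lists of 68319 and 14217 regions were returned. Depth followed from steps in the background and rests on this model, in which the control had 10.18 fragments per kb for both lists.

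Shared means an overlap of 1 bp or more, and each NFKB2 region was paired with the overlapping ELF3 region of most fragments. Intervals are exact: Clopper-Pearson for shares, Poisson for counts, and binomial, divided by the depth ratio, for ratios. Gene extents are the windows less 20 kb each side; the direction of Elf3 and Elf5 is from RefSeq, that of the other 4 genes general knowledge. The members and lists were chosen with earlier results of these data known. By rule, the text names every NFKB2 region and the 3 ELF3 regions of most fragments per window; others were named after their values were seen. Counts over further epithelial, ETS, mesenchymal and marker genes need an annotation of the files' build, not used here, and were not run. Python 3.11.15, SciPy 1.17.1 and pandas 2.3.3 were used.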

Additional observations from a re-analysis of the deposited data

How the results depend on the processing

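Of 36 values recomputed under other settings, 30 stayed within the limits set for them: 1.5 times for counts and cover, the 95% interval for shares and medians. The 49 ELF3 regions became 32 at −log10 q of 10 or more and 30 with the genes alone. The 14 NFKB2 regions became 8 at −log10 q of 5 or more, 4 at 10 or more and 9 with the genes alone. The share of ELF3 regions on NFKB2, 28.6%, became 12.5% at −log10 q of 10 or more, where the 4 NFKB2 regions left are the downstream one of Elf3 and the 5′ ends of Elf3, Ehf and Klf5. These settings leave out regions by construction. The share over the whole ELF3 list at −log10 q of 10 or more was not computed, so 12.5% has no list value beside it. The share on ELF3 was 100% under each setting except summits within 100 bp (85.7%). The pair chosen by the nearest summit, added after the data were seen for the summit distance, changed neither value. No replicate could be left out with 1 library per antibody, and the alternative on further genes was not run. No paired analysis was possible because each antibody has 1 library. At the floor, NFKB2 signal under 8 fragments is not listed.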
